A study of Mus musculus with 8 samples.

Results

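The cytosolic ribosomal protein (RP) genes are the protein-coding genes named Rpl or Rps with a number, together with Rplp0, Rplp1, Rplp2 and Rpsa. On the autosomes of the RefSeq annotation of mouse build GRCm38.p6 (mm10), 72 of 20665 protein-coding genes met this rule, which uses names and positions and no measured value. Of these, 43 encode proteins of the large ribosomal subunit and 29 proteins of the small subunit. Their open chromatin was read by NOMe-seq in 8 libraries of mouse embryonic fibroblasts (MEFs), primary fibroblast cultures from embryos. In this assay nuclei are incubated with M.CviPI, a bacterial enzyme that marks the cytosine of GpC wherever no nucleosome or bound protein covers the DNA, and the mark is read by bisulfite sequencing. The groups were day 1 of Etv2-induced reprogramming with the enzyme (treated), day 0 control MEFs with the enzyme, day 1 without the enzyme (untreated) and day 0 without it, with 2 libraries each. Etv2 is an ETS transcription factor that drives endothelial and blood fates. How Etv2 was delivered and whether the day 0 cells carried the same construct were not given in the sources used here. Nor was it given whether the paired libraries came from separate cultures. The spread between libraries, on which the p-values rest, may therefore be technical. Sign-flip p-values rest on differences within each library, over the treated libraries of both days.

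Cytosolic ribosomal proteins are made in all dividing cells in step with ribosomal RNA, and their genes are among the most strongly transcribed of the nucleus. Their transcripts start at a C within a run of pyrimidines, the TOP motif, through which mTOR signalling controls their translation. Introns of several members carry small nucleolar RNAs that guide the modification of ribosomal RNA. Mammalian genomes also hold many intronless copies of these genes, and 318 loci of the annotation had an RP symbol ending in -ps.

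The members were spread over 18 autosomes, with 14 on chromosome 7 and 7 on chromosome 11. They were short, from 982 to 11774 bp, with a median of 3179 bp against 17634 bp for the other protein-coding genes. Because of this, the windows of 1000 bp on each side of both annotated ends cover much of each gene. For 52 members a RefSeq promoter entry gave the strand, so that the start could be told from the transcript end. For the other 20 it could not. In 44 of the 52 the start of that entry was the annotated gene end. In the rest the annotated start, which is the gene end, and the start used for the promoter window differ. The annotation used gave no exons, and another protein-coding gene lay within 1000 bp of 27 members.

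The promoter letters themselves were compared first, over 300 bases from 250 before to 49 after the first transcribed base, which is position 0. The promoters of the 52 members had a median of 22 CpGs and 58.7% G and C, against 14 CpGs and 56.7% for all 16457 promoters of the table. A run of at least 8 C or T at the start or within a few bases of it was present in 36.5% of the member promoters. The share in all promoters was 9.71%. CCGGAA, the core that many ETS factors bind, was searched on both strands and was present in 26 of the 52 members (50%), against 19.6% of all promoters. AAGATGG, a core of the YY1 motif, was present in 17.3% of members and 6.40% of all, and GGGCGG, the GC box, in 57.7% and 47.3%. CCAAT occurred in 30.8% of members against 39.1% of all promoters, and TATAAA in 7.69% against 13.5%. A match describes the letters only and shows no binding. The start regions of Rpl38 and Rps10, members with many reads, show what such promoters look like. They run from 40 bases before to 19 after the first base (GRCm38.p6, chr11:114668540-114668599, plus strand, and chr17:27635225-27635284, minus strand), and capitals mark the pyrimidine run at the start. The start that the table gives for Rpl38 lies inside its annotated gene interval. Both also hold CCGGAA upstream of the run, at -20 to -15 in Rpl38 and at -29 to -24 in Rps10.
Rpl38: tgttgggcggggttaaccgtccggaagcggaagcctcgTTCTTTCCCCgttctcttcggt
Rps10: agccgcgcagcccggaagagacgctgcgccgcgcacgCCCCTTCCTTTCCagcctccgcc

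Coverage was thin and set what could be measured. A library held 439527 to 1012656 cytosines with 1693307 to 3577740 reads, summed over cytosines here and in the counts below. The median cytosine had 3 reads, the fewest in any library. Over the members and 1000 bp on each side, treated libraries had 1021 and 1146 reads on day 1 and 721 and 560 on day 0. Untreated libraries had 1038 and 1296 reads on day 1 and 638 and 664 on day 0. These reads fell into 45 to 97 stretches of neighbouring cytosines per library and covered 30 to 54 members. No member cytosine had more than 5 reads. Over the 4 treated libraries 66 members had any read and 17 had reads in every one. Rpl24, Rpl28, Rpl29, Rps21, Rps23 and Rps6 had no treated read, and Rps13 no untreated read. Coverage was not lower than elsewhere: treated libraries had 8.43 reads per kb of end window at the members and 7.57 at other genes, and 70.8% of member ends and 56.6% of other ends had a treated read. A read that crosses several cytosines is counted at each, so the counts are not independent molecules. The 95% exact (Clopper-Pearson) intervals below take them as independent and may be too narrow. They do not hold the spread between libraries. Where a member is given as 0 of a number of reads, its underlying level could still be as high as about 3 divided by that number.

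Within 1000 bp of their ends, RP genes were methylated by the enzyme on both days. Treated libraries had 30.6% and 30.6% methylated GpC reads on day 1 and 31.9% and 33.4% on day 0. Untreated libraries had 1.44% and 0.717% on day 1 and 1.05% and 1.08% on day 0. Every treated library lay far above every untreated one. The mean of the 4 treated libraries was 31.6%, against 36.3% at the ends of other protein-coding genes and 29.0% in their interiors. The treated mean exceeded the untreated mean by 29.5 percentage points on day 1 and 31.6 points on day 0, and by 30.6 points over both days together (exact two-sided permutation p = 0.0556, the smallest the 8 libraries allow). Inside the genes, over 1000 bp from both ends, treated libraries had 27.9% and 25.3% on day 1 and 28.5% and 26.6% on day 0. Untreated libraries had 2.21% and 0% there on day 1 and 1.88% and 0.5% on day 0. The 0 stands for 0 of 459 reads, which allows a level of up to 0.654%. Limits of this kind, for a count of 0, are 3 reads of the total and are not Clopper-Pearson bounds. In all, 29 comparisons were tested in this way and the lowest Benjamini-Hochberg adjusted p was 0.3625, so no comparison of pooled levels passed 0.05 after adjustment.

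Between the days the pooled treated level at the ends was 30.6% ± 0.0666 on day 1 and 32.7% ± 1.06 on day 0 (SD, n = 2 each), a difference of -2.08 points. The libraries of the days did not overlap, and the exact permutation p was 0.333, the smallest that 2 against 2 libraries allow. Untreated libraries averaged 1.08% ± 0.509 on day 1 and 1.06% ± 0.0222 on day 0 and overlapped. The net change, treated less untreated, was -2.09 points (exact permutation p = 0.167). The direction depended on which ends were read. Only 5 ends, 1 each of Rpl10a, Rpl26, Rpl3, Rpl32 and Rps10, had reads in all 4 treated libraries. At those ends the level was 41.2% and 39.4% on day 1, against 26.5% and 32.0% on day 0, a difference of 11.03 points in the other direction. In the interiors, treated libraries averaged 26.6% ± 1.83 on day 1 and 27.5% ± 1.34 on day 0 and overlapped (difference -0.893 points, exact permutation p = 0.667). That sign turned in other settings.

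**Figure D1:**
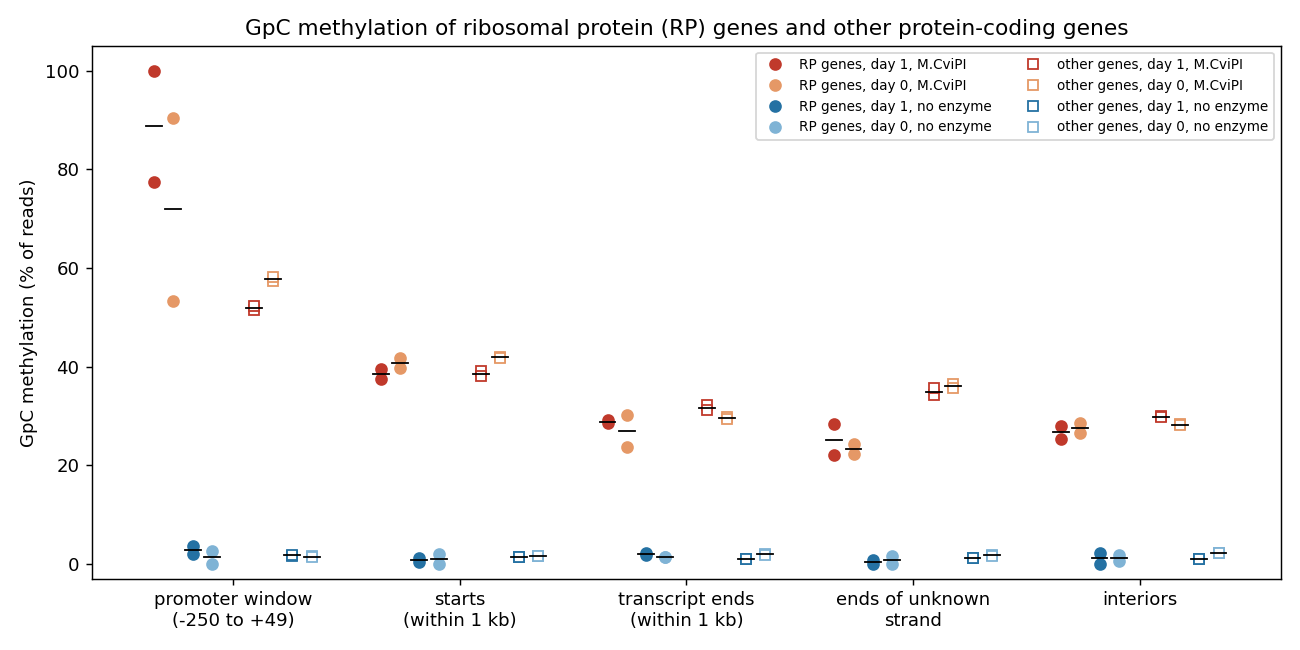
Each mark is the GpC methylation (% of reads) of 1 library in a region of the RP genes (filled circles) or the other protein-coding genes (open squares), and black bars are means of 2 libraries; within a region day 1 stands left of day 0 and M.CviPI left of no enzyme. Treated RP levels run from 53.3% to 100% in the promoter windows and from 37.5% to 41.7% within 1 kb of starts, and all untreated levels of RP genes lie below 4%.

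Treated levels were highest at the starts. Within 1000 bp of the annotated start the treated level was 39.5% and 37.5% on day 1 and 39.7% and 41.7% on day 0. Within 1000 bp of the transcript end it was 28.5% and 29.2% on day 1 and 30.1% and 23.6% on day 0. The start exceeded the transcript end in 4 of 4 treated libraries, by 11.7 points ± 4.33 (SD, n = 4; exact sign-flip permutation p = 0.13, the smallest 4 libraries allow; adjusted p = 0.3625). The untreated starts had 1.15% and 0.391% on day 1 and 0% and 1.89% on day 0, where 0% stands for 0 of 132 reads and allows up to 2.27%. In steps of 200 bp with the 4 treated libraries pooled, the highest step was the 200 bp before the start, where 56 of 79 reads of 10 members were methylated (70.9%, 95% interval 59.6 to 80.6). By day it was 39 of 43 reads (90.7%) on day 1 and 17 of 36 (47.2%) on day 0, from 5 and 6 members. The 200 bp after the start had 51.4% (42.8 to 60.0) pooled, with 12 of 42 reads (28.6%) on day 1 and 60 of 98 (61.2%) on day 0, so the highest of these steps lay before the start on day 1 and after it on day 0. The next 200 bp had 28.3% (20.7 to 37.0). Other protein-coding genes had 52.8% in the 200 bp before the start (49.6% on day 1 and 55.9% on day 0), 46.4% after it and 39.2% in the next step. Before the start, the day 1 level of the members was above that of other genes (95% interval 77.9 to 97.4). On day 0 the interval, 30.4 to 64.5, held the level of other genes. Both rest on reads of few promoters. Around transcript ends the other genes were flat, from 29.9% to 31.9%, while the members scattered from 12.2% to 50% in steps with 44 to 115 reads of 4 to 9 members. Over all member ends, the centre from 150 bp outside to 50 bp inside had 61.5% and 57.4% on day 1 and 30.3% and 61.8% on day 0. The flanks, 500 to 1000 bp on each side, had 26.7% and 29.4% on day 1 and 22.1% and 25.2% on day 0. Centre exceeded flanks in 4 of 4 libraries, by 26.9 points on average (exact sign-flip permutation p = 0.13). Replicate 1 of day 0 stood apart, with an excess of 8.24 points on 33 centre reads, while the other day 0 library had 36.6 points. The excess was 31.4 ± 4.80 points on day 1 and 22.4 ± 20.04 on day 0 (SD, n = 2 each), and without that library the sign of the day difference turned to -5.16 points.

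**Figure D2:**
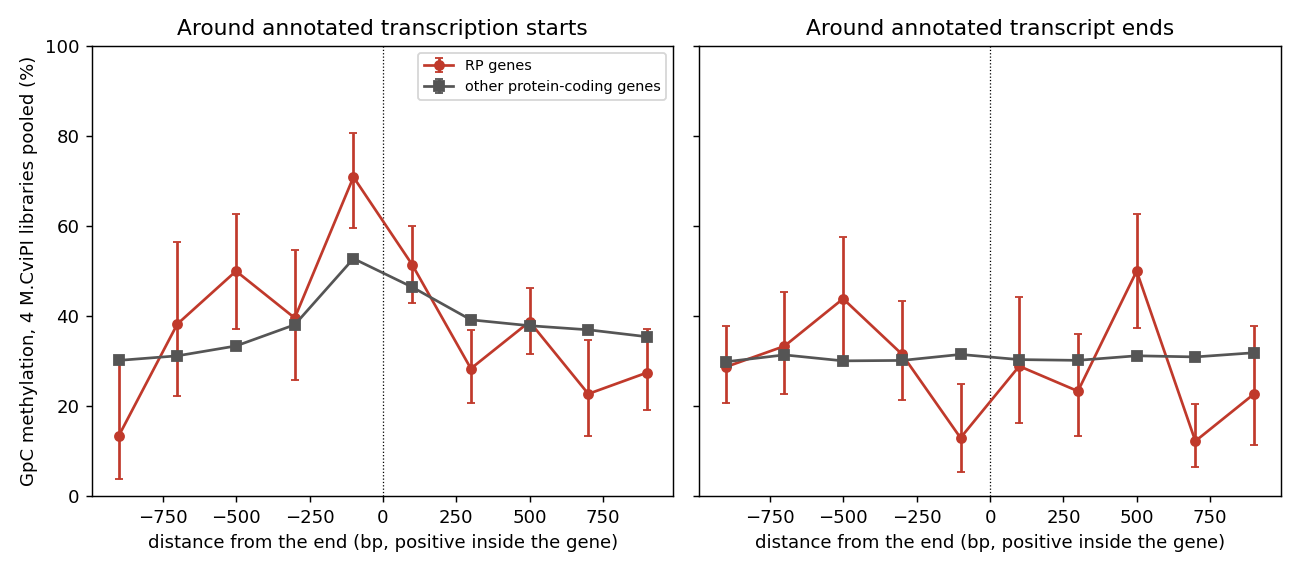
GpC methylation of the 4 treated libraries pooled, in steps of 200 bp by distance from the annotated start (left) and transcript end (right). Positive distances lie inside the gene, red circles are RP genes and grey squares other protein-coding genes. Bars are 95% exact intervals that take the summed counts as independent. RP genes reach 70.9% in the step before the start (90.7% on day 1 and 47.2% on day 0 when the days are taken apart) and 12.2% at the lowest step around transcript ends.

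Close to the start most reads of the treated libraries were methylated, in a small number of promoters. In the 300 base promoter windows, 31 of 40 reads (77.5%) and 15 of 15 (100%) were methylated in the treated libraries of day 1, and 16 of 30 (53.3%) and 19 of 21 (90.5%) in those of day 0. Without the enzyme it was 2 of 57 and 1 of 51 reads on day 1, and 0 of 30 (which allows up to 10%) and 2 of 77 on day 0. Treated exceeded untreated by 78.3 points (exact permutation p = 0.0556, the smallest possible). Other genes had 51.5% and 52.4% on day 1 and 57.2% and 58.2% on day 0 in the same windows. The members were higher in 3 of 4 treated libraries, by 25.5 points on average over the 4 (exact sign-flip permutation p = 0.25), and lower in replicate 1 of day 0, by a difference of -3.91 points. The 100% of replicate 2 of day 1 came from Rps3 alone, and without that library the mean difference was 18.1 points. Only 12 members had treated reads there, 10 of them in a single library, so the days cannot be compared promoter by promoter. Of the 12, 10 had over 50% of their 3 to 15 reads methylated and 6 had every read methylated.

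The promoter windows behind these values show where the reads lie. Rpl10a, Rpl13 and Rps19 were among the 10 members with the most treated reads. Rps3, Rpl31 and Rps28 were picked after their values were seen, as the longest fully methylated windows and the single window with no methylated read. Capitals mark each GC whose cytosine was read in a treated library. All are 300 bases from RefSeq (GRCm38.p6): Rps3 chr7:99483660-99483959 (minus strand), Rpl31 chr1:39367601-39367900 (plus), Rpl10a chr17:28328221-28328520 (plus), Rpl13 chr8:123102100-123102399 (plus), Rps19 chr7:24884342-24884641 (plus) and Rps28 chr17:33824513-33824812 (minus).
Rps3: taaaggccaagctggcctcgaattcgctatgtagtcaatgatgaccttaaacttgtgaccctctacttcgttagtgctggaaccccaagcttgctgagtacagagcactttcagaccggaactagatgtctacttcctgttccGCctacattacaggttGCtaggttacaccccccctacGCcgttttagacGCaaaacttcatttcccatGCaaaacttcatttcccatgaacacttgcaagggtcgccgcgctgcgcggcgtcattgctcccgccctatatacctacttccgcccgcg
Rpl31: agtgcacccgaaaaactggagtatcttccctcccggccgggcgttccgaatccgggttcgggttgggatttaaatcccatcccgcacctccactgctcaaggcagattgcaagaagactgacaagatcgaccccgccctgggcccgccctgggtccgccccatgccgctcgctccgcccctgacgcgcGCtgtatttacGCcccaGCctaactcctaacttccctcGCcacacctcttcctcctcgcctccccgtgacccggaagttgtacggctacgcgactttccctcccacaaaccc
Rpl10a: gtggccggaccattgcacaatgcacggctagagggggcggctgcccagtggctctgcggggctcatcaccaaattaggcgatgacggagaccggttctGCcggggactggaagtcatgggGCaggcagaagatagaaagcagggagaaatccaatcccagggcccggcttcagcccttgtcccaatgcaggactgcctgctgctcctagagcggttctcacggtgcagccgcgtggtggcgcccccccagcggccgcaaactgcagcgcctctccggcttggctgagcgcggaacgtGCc
Rpl13: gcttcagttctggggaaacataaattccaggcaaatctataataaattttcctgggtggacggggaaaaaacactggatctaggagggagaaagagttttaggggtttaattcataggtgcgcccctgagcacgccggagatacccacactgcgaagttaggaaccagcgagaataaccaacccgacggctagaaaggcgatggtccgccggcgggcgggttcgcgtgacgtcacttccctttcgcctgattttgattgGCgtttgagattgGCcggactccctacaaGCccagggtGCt
Rps19: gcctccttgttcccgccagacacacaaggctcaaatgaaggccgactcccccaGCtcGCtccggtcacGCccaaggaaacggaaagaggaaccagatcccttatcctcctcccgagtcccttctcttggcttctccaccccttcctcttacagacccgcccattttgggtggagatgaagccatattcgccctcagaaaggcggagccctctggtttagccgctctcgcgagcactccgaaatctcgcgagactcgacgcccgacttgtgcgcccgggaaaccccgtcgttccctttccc
Rps28: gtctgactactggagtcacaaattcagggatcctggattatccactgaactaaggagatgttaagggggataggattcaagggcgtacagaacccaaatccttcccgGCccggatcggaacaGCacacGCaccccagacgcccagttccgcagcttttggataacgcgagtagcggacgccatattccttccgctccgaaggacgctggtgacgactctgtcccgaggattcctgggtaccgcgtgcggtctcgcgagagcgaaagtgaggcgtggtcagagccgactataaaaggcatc

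Rps3, a small subunit protein at the mRNA entry site that also takes part in DNA repair, had 15 of 15 reads methylated over 5 cytosines from -106 to -38 in replicate 2 of day 1. Rpl31, which lies beside the tunnel through which the new peptide leaves, had 12 of 12 over 4 cytosines from -61 to -23 in replicate 1 of day 1. In the untreated replicate 1 of the same day Rpl31 had 0 of 10 further upstream. The rest of both windows was not read with the enzyme in any library. Rpl14 gave a direct contrast at the same cytosines, 7 and 14 bases after the start. There 6 of 6 reads were methylated in a treated library of day 0 and 0 of 6 in an untreated one. Rps16 had 6 of 6 on day 1, and Rps13 and Rpsa, whose protein is also known as the laminin receptor, had 3 of 3 each on day 0. Rpl13 had 10 of 12 just after its start on day 0, and Rpl13a, known in human cells for silencing inflammatory mRNAs when released from the ribosome, had 8 of 9 between -214 and -161 on day 1. Rps19, the gene first linked to Diamond-Blackfan anaemia in humans, had 6 of 9 between -196 and -181 on day 0. Rpl10a, a protein of the L1 stalk that helps the spent tRNA leave, had 4 of 7 reads on day 1 and 3 of 3 on day 0, at different cytosines. Its untreated windows had 0 of 6 and 0 of 3 on day 1 and 0 of 9 and 0 of 9 on day 0. The cytosine at position 48 of Rpl10a was read both with and without the enzyme on day 1. It had 3 of 3 methylated reads in treated replicate 1 and 0 of 3 in untreated replicate 2. Rpl34 had 1 of 6 reads between -246 and -238 on day 1 and 4 of 6 at -36 to -33 on day 0. Rps28 was the only 1 of the 12 with no methylated treated read, with 0 of 9 between -142 and -121 in replicate 1 of day 0. At -128, untreated replicate 1 of day 1 had 1 of 3 reads methylated.

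**Figure D3:**
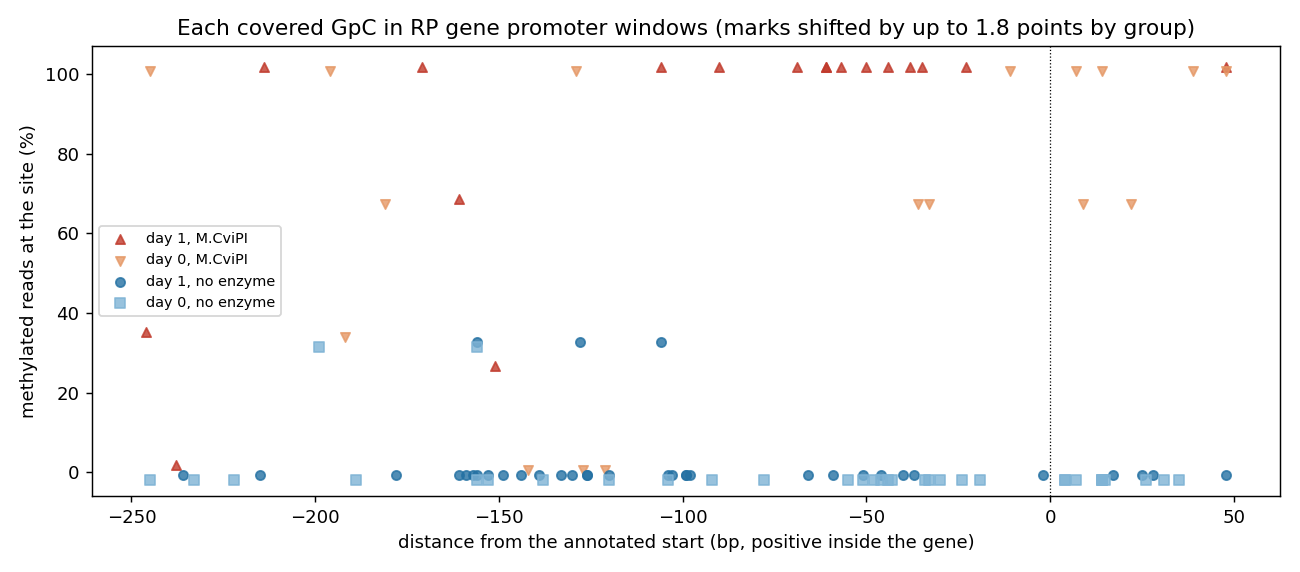
Each mark is 1 cytosine of 1 library within the promoter window of an RP gene. It is placed by its distance in bp from the start of the RefSeq promoter entry (0, dotted line). Its height is the percent of methylated reads, usually of 3 reads. Marks are shifted by up to 1.8 points by group so that they do not hide each other. With M.CviPI most cytosines stand at 100%, and without the enzyme all but 5 stand at 0%.

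Over the whole end window, RP genes were less methylated than other genes in these treated libraries. Their ends were lower than those of other protein-coding genes in 4 of 4 treated libraries, at 30.6% against 35.7% and 30.6% against 35.3% on day 1, and at 31.9% against 37.4% and 33.4% against 36.9% on day 0. The mean difference was -4.68 points ± 0.901 (SD, n = 4; exact sign-flip permutation p = 0.13, adjusted p = 0.3625). It was -3.34 points against other genes no longer than the longest member, and -1.55 points over ends read in all 4 treated libraries. The flanks held more of it, at -6.77 points (4 of 4 libraries lower, same p), but the sign turned to 7.34 points over ends read in all 4 treated libraries. The centre differed by 2.40 points with 3 libraries higher and 1 lower (exact permutation p = 0.875). Starts alone differed by -0.624 points (p = 0.375, exact sign-flip permutation), and that sign turned in other settings. Transcript ends differed by -2.72 points and interiors by -1.96 points, each lower in 3 of 4 libraries (exact sign-flip permutation p = 0.25). The ends of the 20 members without a strand were lowest, with 22.1% and 28.2% on day 1 and 22.2% and 24.3% on day 0. That was -11.2 points from other genes without a strand (4 of 4 lower, exact permutation p = 0.13), and -3.42 points over ends read in all 4 treated libraries. The day change of the members differed from that of the other genes by -0.394 points, within the spread between libraries (exact permutation p = 1), and that sign turned in other settings.

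Among genes of translation, the ends of mitochondrial ribosomal protein genes had higher levels in each treated library. These 78 genes, whose products build the separate ribosome of mitochondria, had 42.5% and 38.9% on day 1 and 42.9% and 39.4% on day 0. The cytosolic members lay below them in 4 of 4 treated libraries, by a mean difference of -9.28 points ± 2.69 (SD, n = 4; exact sign-flip permutation p = 0.13). The 66 genes called translation factors here were chosen by symbol, Eif or Eef with a number. That rule does not separate initiation and elongation factors from regulators with such symbols. These 66 genes had 38.7% and 35.6% on day 1 and 40.6% and 44.6% on day 0. The members lay below them as well in 4 of 4 libraries (-8.22 points ± 2.53, same p), although over ends read in all 4 treated libraries the difference was 2.70 points. Neither list reached an adjusted p under 0.3625. Within the ribosome the order of the subunits varied by library: large subunit genes had 29.0% and 30.9% on day 1 and 33.6% and 34.4% on day 0, and small subunit genes 36.2% and 30.3% on day 1 and 26.4% and 32.3% on day 0. Large less small was 0.699 points with a spread of 5.96 (SD, n = 4; exact sign-flip permutation p = 0.625), and the sign turned in other settings.

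Over each gene with 1000 bp on both sides, 15 of the 25 members with the most treated reads were read in all 4 treated libraries. They ranged from 13.6% to 47.6% with the treated libraries pooled, with a median of 29.8%. Rpl31 (chr1:39367851-39371911, 63 reads), Rpl13 (chr8:123102350-123105244) and Rpl10a (chr17:28328471-28331033) were the most methylated of the 15, at 47.6% (95% interval 34.9 to 60.6), 47.1% (38.6 to 55.8) and 43.2% (34.8 to 51.8). Rpl7a (chr2:26910685-26913312) was the least, at 13.6% (6.4 to 24.3). Different stretches of each gene were read, and these intervals do not hold the spread between libraries. Without replicate 1 of day 1, Rpl31 had 30.3%, while Rpl13 had 39.4% to 53.7%, Rpl10a 37.0% to 44.9% and Rpl7a 11.1% to 15.0% without any 1 treated library.

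Rpl38, a large subunit protein that mouse embryos need to translate Hox mRNAs, had the most treated reads (chr11:114667818-114672333). It had 6 of 56 and 17 of 60 methylated reads on day 1 and 1 of 6 and 13 of 60 on day 0, or 19.8% and 21.2% by day. Untreated libraries had 0 of 6 and 2 of 18 on day 1 and 0 of 28 and 0 of 12 on day 0. The days overlapped at a low level, on 3 reads near its annotated start and 38 near its transcript end. Rpl36, of the large subunit (chr17:56610094-56614246), had 9 of 33 and 10 of 58 on day 1 against 22 of 58 and 4 of 15 on day 0, and also overlapped. Rpl8, a protein that reaches into the peptidyl transferase centre (chr15:76904071-76906318), had 1 of 15 and 15 of 40 on day 1 and 18 of 48 and 2 of 18 on day 0. Each day of Rpl8 thus held 1 low and 1 higher library. Rpl3, which also reaches towards that centre (chr15:80077781-80083406), had 27 of 58 and 7 of 45 on day 1 and 9 of 24 and 3 of 6 on day 0. Its day 1 replicates stood further apart than the days.

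Of the 17 members with reads in all 4 treated libraries, 4 were higher on day 1 without overlap (Rpl32, Rpl10a, Rps10 and Rpl7a) and 2 lower (Rpl13 and Rps24), while 11 overlapped. Among all 11643 genes covered in this way, 20.4% were higher without overlap and 13.7% lower, and among genes no longer than the longest member 18.1% and 13.8%, so the shares of members were close to those of genes in general. Rpl32, a large subunit protein (chr6:115805514-115808743), had 11 of 43 and 16 of 45 methylated reads on day 1, against 5 of 45 and 0 of 9 on day 0. Its untreated libraries had 0 of 18 and 0 of 51 on day 1 and 0 of 15 and 0 of 84 on day 0. Rpl10a had 16 of 40 and 33 of 66 on day 1, against 4 of 12 and 7 of 21 on day 0. Both were covered on each day, Rpl10a mostly on day 1. Rps10, at the mRNA entry channel (chr17:27630415-27635244), had 11 of 27 and 14 of 42 on day 1, against 0 of 9 and 4 of 24 on day 0. Rpl7a had 6 of 39 and 2 of 9 on day 1, against 0 of 6 and 1 of 12 on day 0. In Rpl7a the day 0 libraries rested on very few reads. Rpl13 had 3 of 9 and 0 of 6 on day 1, against 26 of 39 and 36 of 84 on day 0. Rps24, another gene mutated in Diamond-Blackfan anaemia (chr14:24490678-24496960), had 0 of 3 and 2 of 19 on day 1, against 11 of 33 and 10 of 18 on day 0. In Rpl13 both day 1 libraries were thinly read, and in Rps24 1 of them was. Rps19 had 9 of 21 and 5 of 12 on day 1, against 7 of 15 and 8 of 54 on day 0, and overlapped.

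**Figure D4:**
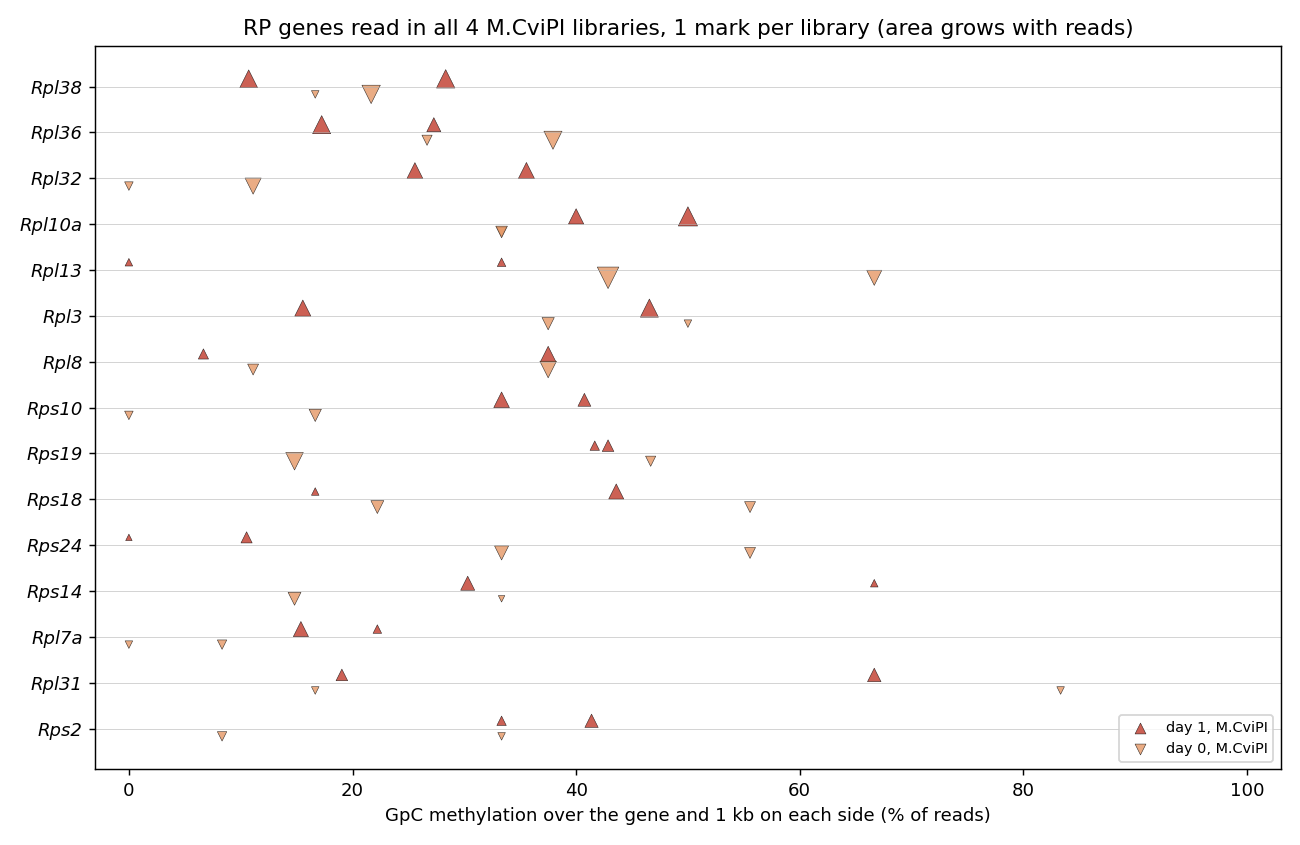
GpC methylation (% of reads) over the gene and 1 kb on each side for the 15 RP genes that were read in all 4 treated libraries and were among the 25 with the most treated reads, 1 mark per treated library (red upward triangles day 1, orange downward triangles day 0, area growing with reads). Marks of the days lie apart for Rpl32, Rpl10a, Rps10 and Rpl7a (day 1 higher) and for Rpl13 and Rps24 (day 1 lower), and small marks hold as few as 3 reads.

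Some further members were read unevenly over the treated libraries. Rpl34 had 5 of 12 and 7 of 53 on day 1, against 16 of 18 in the single day 0 library that read it. Rpl27 had 2 of 6 and 7 of 34 on day 1, against 15 of 24 in 1 library of day 0. In both, the day 0 library was the highest. Rpl12 went the other way, with 10 of 27 in 1 library of day 1, against 5 of 45 in 1 of day 0. Rpl23, which in human cells binds and restrains the p53 ligase MDM2, was read on day 1 alone, with 25 of 96 and 0 of 3. Rpl18 was likewise read on day 1 alone, with 3 of 33 and 6 of 21. Rps14 had 4 of 6 and 10 of 33 on day 1, against 1 of 3 and 4 of 27 on day 0, and Rpl31 20 of 30 and 4 of 21 on day 1, against 5 of 6 and 1 of 6 on day 0. Rps18 and Rps2, both of the small subunit, had 17 of 39 and 1 of 6, and 12 of 29 and 4 of 12, on day 1; on day 0 they had 10 of 18 and 6 of 27, and 1 of 12 and 2 of 6. In Rps14, Rpl31, Rps18 and Rps2 the days overlapped.

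The background without the enzyme was low in almost every member. At least 1 methylated untreated read occurred in 25 members. Rpl13a had the most, with 4 of 78 untreated reads, followed by Rps2 with 3 of 138 and Rps21 with 3 of 75. Of the 8 members with reads in all 8 libraries, Rpl10a, Rpl36, Rpl8 and Rps18 had every treated library above every untreated one, against 89.1% of all genes read in all 8. That share is over genes of any length and was not matched to the short members in length or reads. Rpl13, Rpl32, Rpl38 and Rps2 each had a treated library at or below an untreated one.

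A test gene by gene was possible for few members. With at least 20 reads in every library, 5642 genes could be fitted in edgeR (quasi-likelihood, methylated and unmethylated counts) and 0 of them were RP genes. At 8 reads the fit held 9089 genes with 4 members, Rpl32, Rpl8, Rpl10a and Rpl36. All 4 were called for treated against untreated on day 1 and on day 0, as were 99.3% and 94.6% of all genes tested. The edgeR adjusted p of Rpl10a was 1.8e-05 on day 1, with 49 of 106 methylated reads treated and 0 of 53 untreated. For Rpl32 on day 0 it was 0.0232, with 5 of 54 and 0 of 99. That call was lost without replicate 1 of the treated day 0 libraries (adjusted p = 1) or replicate 2 of the untreated ones (edgeR adjusted p = 0.268). Calls were also lost for Rpl10a on day 0 without untreated replicate 1 (0.0606), Rpl8 on day 0 without treated replicate 1 (0.0534), Rpl8 on day 1 without treated replicate 2 (0.144) and Rpl36 on day 1 without untreated replicate 2 (0.0652). Between the treated libraries of day 1 and day 0, edgeR called 0 of the 4 members and 0 of all 9089 genes, of which 289 had an unadjusted p under 0.05 (limma 0, with 188). The largest difference among the 4 was that of Rpl32, 2.13 on the log2 odds scale (unadjusted p = 0.0508, edgeR adjusted p = 0.999). Rpl10a had 0.73, Rpl8 -0.08 and Rpl36 -0.95. Between the untreated libraries of the days edgeR also called 0 of the 4, against 0.011% of all genes higher and 2.57% lower on day 1. With so few members tested, the fit leaves the day effect on most RP genes unmeasured.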

How the data were processed

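GpC methylation was measured in 8 MEF libraries. Per the file values, the authors deposited 1 line per cytosine with the fraction of methylated reads, rounded to 2 decimals, and in another column the count of reads; both deposited units were read from the values. The build was mm10 per the submitters' processing notes, while the sources used here do not give the aligner, the caller or what was done with duplicates and with reads that match several places. A fraction of few reads moves in large steps, and reads shared with intronless copies cannot be told from those of the parent gene.

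Methylated reads were the rounded product of fraction and count, which was whole within rounding at 100% of sites. Of 43930 sites inside RefSeq promoter windows, 100% were cytosines of GpC not followed by G. Autosomal sites of 3 to 100 reads were pooled per library as methylated reads over reads, and group values are mean and SD over 2 libraries. Distances at starts and transcript ends were measured from annotated gene ends. In the promoter windows they were measured from the start of the RefSeq promoter entry. Comparisons of pooled levels used exact two-sided permutation tests over libraries, of which 2 against 2 cannot go below p = 0.333, days within enzyme groups (or enzyme within days) below 0.0556 and sign flips over 4 libraries below 0.13, with Benjamini-Hochberg adjustment over 29 comparisons. Whole loci, each gene extended by 1000 bp either way, were fitted in edgeR 4.0.16 (R 4.3.3) with library effects. The fit used a minimum of 20 reads in every library and an adjusted p threshold of 0.05, with limma 3.58.1 as an alternative. No RP gene passed that minimum, so the members' fitted values come from the alternative of 8 reads. Only the fit at 20 reads was tested on simulated data, and the fit at 8 reads was not. The rest used scipy 1.17.1, pandas 2.3.3, numpy 2.4.6 and, for figures, matplotlib 3.10.9 under Python 3.11.15. The named genes were the 25 members with the most treated reads and any member passing the 20-read minimum. One of the 25 is not reported here. Others were named where a small set was listed whole, as for the 12 members with treated promoter reads, or after their values were seen, as for the untreated background. The members and lists were chosen with earlier results of these data known. Alternatives were other limits on reads per site, windows, weights, subsets of ends, left-out libraries and the replicate block.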

Additional observations from a re-analysis of the deposited data

How the results depend on the processing

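Of 31 results at RP genes, 17 kept their sign in every alternative run, and 40 of 378 alternatives turned one. Treated exceeded untreated throughout, at RP gene ends by 30.1 to 38.7 points over both days, and the RP starts exceeded transcript ends by 9.64 to 31.5 points. RP ends stayed below other genes by -5.09 to -0.624 points. With windows of 500 bp the sign turned for the untreated day difference at ends (-0.185), the interior day differences, treated (1.55), untreated (0.186) and net (1.36), large less small subunit (-1.21), starts less those of other genes (1.31) and the day difference of treated starts (2.24). Over ends or genes read in every library compared it turned for the treated (11.03) and net (16.4) day differences at ends, the untreated interiors (1.04), the flanks (7.34) and starts (9.92) less those of other genes, the day difference of ends less other genes (11.5), the day difference of starts (0.28) and ends less translation factors (2.70). With each gene weighted once it turned for the treated (4.56) and net (6.29) interiors, centre less flanks between days (-5.27), large less small subunit (-0.0224) and starts less other genes (2.97). With starts alone it turned for the untreated day difference (-0.171), flanks less other genes (0.356), the day difference less other genes (1.15) and large less small subunit (-3.23). Without the member with the most reads, Rpl38, the untreated day difference was -0.12. Against other genes no longer than the longest member, chosen after the data were seen, the starts differed by 1.33. In each of these cases the cause was not tested. Leaving out 1 library at a time gave -0.345 to 0.374 points for the untreated day difference at ends (below 0 without replicate 1 of day 1 or of day 0). It gave -2.18 to 0.398 for the treated interiors (above 0 without day 1 replicate 2 or day 0 replicate 1), -1.19 to 1.02 for the untreated interiors (above 0 without day 1 replicate 2 or day 0 replicate 1) and -2.10 to 0.482 for the net interiors (above 0 without day 1 treated replicate 2, day 0 treated replicate 1 or day 1 untreated replicate 1). It gave -5.16 to 23.2 for centre less flanks between days (below 0 without day 0 replicate 1), -1.46 to 10.9 for the centre less other genes (below 0 without either day 1 library), -1.42 to 0.637 for the day difference less other genes (above 0 without day 0 replicate 2) and -1.47 to 3.32 for large less small subunit (below 0 without day 0 replicate 1).

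With at least 8 reads in every library, 4 members were called for treated against untreated on each day, also in limma and with the replicate block, both chosen after the data were seen. Without 1 library it was 3 to 5 on day 1 and 2 to 4 on day 0, out of 4 to 6 members tested. A fit of the 4 libraries of day 1 alone, at 20 reads, tested and called 3 members (Rpl3, Rpl31 and Rpl36). That fit called 10104 of all 10137 genes tested. With all libraries at 8 reads, edgeR called 99.3% of all genes on day 1 and 94.6% on day 0. Calls for treated against untreated therefore do not set the members apart from other genes. Deviations of same-numbered libraries correlated at -0.0232 to 0.019 over 5642 loci. With so few reads a locus, values near 0 can arise with or without pairing, so they do not settle whether the replicate numbers pair the samples. With the replicate numbers as a block, the treated day difference at ends was -2.08 points, as without it (exact permutation p = 0.5, the smallest 2 pairs allow), and 0 members were called between days. The 3 reads of most sites and the 17 members read in all treated libraries limit what a day difference of single genes can show.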

Other observations

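Other genes of the ribosome's assembly and of the cell types at hand were read at too few ends for a comparison and are given as values. At the ends of 24 ribosome biogenesis genes (nucleolar proteins and RNA polymerase I subunits) the treated level was 44.3% and 30.4% on day 1 and 36.7% and 40.8% on day 0. The 6 RP-like genes outside the naming rule, such as Rpl22l1 and Rps27l, had 23.5% and 40.7% on day 1 and 58.3% and 44.0% on day 0, on 12 to 84 reads a library. The libraries hold DNA and no RNA, so the fibroblast label could be looked at only through accessibility. The ends of 11 fibroblast marker genes had 38.0% and 33.0% on day 1 and 80.0% and 52.4% on day 0, with 7 of the 11 read. Those of 7 endothelial markers had 42.0% and 11.1% on day 1 and 34.6% and 40.0% on day 0, and those of 3 blood markers 23.8% and 11.1% on day 1 and 66.7% and 33.3% on day 0. A treated library had at most 108 reads over any of these marker lists, and their part in the RP results was not tested.

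Without the enzyme, the interiors of other protein-coding genes had 1.00% on day 1 and 2.17% on day 0, while RP interiors had 1.10% ± 1.56 and 1.19% ± 0.972 on those days (SD, n = 2 each). The RP replicates spread too far apart to show a difference of that size.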
